A study of Mus musculus with 33 samples.

Results

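The collagen genes of mouse embryonic stem cells (ESCs) were examined in 33 RNA-seq libraries of 11 conditions, 3 libraries each. The members were chosen by symbol alone: every gene named Col, a number, a and a number was taken, which gave 44 of the 55487 genes in the deposited tables. All 44 are protein-coding. By chain type they comprised 11 fibrillar collagens, 6 type IV collagens that form the basement membrane network, 3 further collagens of the basement membrane zone (*Col7a1*, *Col15a1* and *Col18a1*), 6 beaded-filament collagens of type VI, 9 fibril-associated collagens, 3 short-chain network collagens, 4 transmembrane collagens and 2 others (*Col26a1* and *Col28a1*).

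All cells were C57BL/6 mouse ESCs. Heterochromatin protein 1 (HP1) is a reader of methylated histone H3 lysine 9 with 3 mouse forms, HP1α, HP1β and HP1γ, and *Setdb1* is an enzyme that writes that mark. Libraries came from *Hp1α* Δ/Δ, *Hp1β* Δ/Δ, *Hp1γ* Δ/Δ, *Hp1β/γ* Δ/Δ, *Hp1α/β* Δ/Δ and also *Hp1α/γ* Δ/Δ ESCs, from *Hp1α/β/γ* Δ/Δ ESCs (the triple mutant), from wild-type set A and wild-type set B, which carry the same genotype label, and from *Setdb1* F/F ESCs, whose gene is floxed but present, and *Setdb1* Δ/Δ ESCs derived from them. The mutants with 1 or 2 deleted Hp1 genes are clones made with CRISPR/Cas9. The triple mutant was made by Cre from an *Hp1α/β* Δ/Δ line with floxed *Hp1γ*, a parent line that was not analysed here. Each genotype is thus represented by few clones. For the triple mutant RNA-seq the study names that floxed line with a control vector as the counterpart, whereas the deposited comparison is with set A. By the study, triple mutant RNA was taken in the days after Cre transfection, while the other Hp1 mutants were constitutive. The study reports much apoptosis and cell-cycle arrest in the triple mutant. Cre treatment and this timing cannot be told apart from its genotype. *Setdb1* Δ/Δ ESCs were, by the study, likewise made by Cre from the floxed line, so Cre treatment cannot be told apart from their genotype either. Cultures stood on inactivated mouse embryonic fibroblasts with serum and LIF, and the ESCs were parted from these feeders by letting the trypsinised cells settle on gelatin, which may leave some feeders behind. Single mutants, *Hp1α/β* Δ/Δ and the triple mutant were compared with wild-type set A, the other pairs (*Hp1α/γ* and *Hp1β/γ*) with set B, the triple mutant also with *Hp1α/β* Δ/Δ, and *Setdb1* Δ/Δ with *Setdb1* F/F. The comparisons with set A share its libraries, as do those with set B.

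Collagens are secreted or membrane-bound proteins whose chains wind around each other in groups of 3 to form a stiff helix. Fibrillar collagens such as types I, III and V build the cable-like fibres of connective tissue and are the typical products of fibroblasts. Type IV collagen instead forms a sheet-like network in basement membranes, where its commonest form combines α1 and α2 chains, the products of *Col4a1* and *Col4a2*. Type XVIII collagen, the product of *Col18a1*, carries heparan sulphate chains and sits at the edge of basement membranes, and its C-terminal fragment is endostatin. ESCs and early embryonic epithelia are known to lay down basement membrane, whereas type I collagen in an ESC culture can also come from the feeders.

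The start sites of 3 members on which the results below turn are shown first. Of the 44 members, 35 had a start-site window in the RefSeq sequences of build GRCm38.p6 (38 windows in all, each of 300 bases, 250 before the annotated start and 50 after it). *Col4a1* on the minus strand of chromosome 8 and *Col4a2* on the plus strand start head to head, with annotated genes that share 22 bases, and their windows, chr8:11312777-11313076 and chr8:11312555-11312854, share 78 bases, chr8:11312777-11312854, printed in capitals. Each sequence reads 5′ to 3′ on the strand of its own gene, so the stretches in capitals are reverse complements of each other.
Col4a1: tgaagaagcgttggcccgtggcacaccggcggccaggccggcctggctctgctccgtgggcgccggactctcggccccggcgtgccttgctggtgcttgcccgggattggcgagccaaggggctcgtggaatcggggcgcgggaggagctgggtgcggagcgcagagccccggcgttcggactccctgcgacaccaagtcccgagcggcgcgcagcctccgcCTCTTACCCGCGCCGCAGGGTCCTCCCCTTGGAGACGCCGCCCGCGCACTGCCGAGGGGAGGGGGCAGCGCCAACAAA
Col4a2: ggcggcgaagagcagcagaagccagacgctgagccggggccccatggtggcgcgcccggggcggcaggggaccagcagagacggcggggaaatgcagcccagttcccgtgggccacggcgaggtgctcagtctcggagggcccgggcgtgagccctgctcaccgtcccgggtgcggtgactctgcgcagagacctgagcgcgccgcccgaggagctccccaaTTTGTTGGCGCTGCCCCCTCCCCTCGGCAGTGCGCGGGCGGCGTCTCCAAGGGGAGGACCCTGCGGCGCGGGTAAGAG
*Col18a1* has 2 annotated starts on the minus strand of chromosome 10. The upstream window, chr10:77166481-77166780, holds 3 copies of the GC box (GGGCGG or CCGCCC on the strand shown, the letters bound by Sp1-type factors), printed in capitals, and the downstream window holds none.
Col18a1: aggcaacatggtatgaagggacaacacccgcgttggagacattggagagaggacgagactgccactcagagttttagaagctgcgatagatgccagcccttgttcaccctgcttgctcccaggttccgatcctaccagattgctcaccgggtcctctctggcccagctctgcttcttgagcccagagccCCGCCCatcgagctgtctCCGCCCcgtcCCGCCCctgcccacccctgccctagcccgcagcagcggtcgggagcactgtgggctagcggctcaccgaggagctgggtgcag
The GC box lay in 23 of the 38 collagen windows (60.5%) against 35.7% of all 32851 windows of that length. The CCAAT box (CCAAT or ATTGG) lay in 34.2% against 37.4%, and the TATA box (TATAAA or TTTATA) in 13.2% against 13.6%, each read on both strands. Copies of the same motif can overlap within a window, and a match is a description of the window only.

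Totals per library ranged from 17330936 to 25743149 counts (median 21522569). The deleted genes were checked first, as CPM (the count of a gene per unit of its TMM-scaled library total), which cover the whole gene including parts outside the deletion. *Cbx5*, which encodes HP1α, averaged 484 CPM in set A and 177, 203 and 149 CPM in *Hp1α* Δ/Δ, *Hp1α/β* Δ/Δ and *Hp1α/γ* Δ/Δ, but 282 CPM in the triple mutant. *Cbx1* (HP1β) averaged 439 CPM in set A and between 46.2 and 104 CPM in the 4 mutants that lack it. *Cbx3* (HP1γ) averaged 177 CPM in set A and between 64.6 and 88.0 CPM in the mutants that lack it, and *Setdb1* went from 132 CPM in *Setdb1* F/F to 69.9 CPM in *Setdb1* Δ/Δ. All 8 ESC markers examined, among them *Pou5f1* and *Nanog*, reached 1 CPM in every condition, but their sum moved with genotype. It lay between 1407 and 1455 CPM in the triple mutant against 3389 to 3429 CPM in set A. In that mutant 5 of 8 were called lower, against 17.1% of all genes, with *Tdgf1* (log2 fold change −2.63) and *Dppa5a* (−1.82) changing most. In *Hp1α/γ* Δ/Δ ESCs the sum measured 5584, 7975 and 5775 CPM against 3297 to 3385 CPM in set B. There 4 of 8 were higher, against 6.75% of all genes, *Nanog* by 1.496 on the log2 scale (1.46 without replicate 2, when 4 of 8 were again higher, against 6.56%). The sum in *Setdb1* Δ/Δ ESCs lay between 4404 and 4451 CPM against 6207 to 6233 CPM in *Setdb1* F/F, with *Dppa5a* (−1.26) called lower. The part of these shifts in the collagen values was not tested. *Hp1α/γ* Δ/Δ replicate 2 stood apart from the other 2 libraries of its group (correlation of log2 CPM across genes 0.958 and 0.961, against 0.997 between replicates 1 and 3), so the collagen changes and the list counts of that group are given with and without it. The study describes 3 biological replicates per sample, and 3 independent experiments for the triple mutant, while the labels do not say that replicates were separate cultures. The p-values measure only the spread between these libraries.

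*Col18a1* was the most highly expressed collagen gene in all 11 conditions. On a scale of CPM per kilobase of the deposited gene length, which equals the longest annotated transcript for 35 of the 44 members and allows levels of different genes to be compared, it averaged 110.3 ± 2.48 (SD, n = 3) in set A, followed by *Col4a1* at 8.37 ± 0.78, *Col9a2* at 6.74 ± 0.12, *Col4a2* at 3.85 ± 0.30 and *Col5a3* at 2.49 ± 0.09. The most abundant fibrillar collagen of connective tissue type in set A was *Col5a1*, at 1.91 ± 0.29 CPM per kilobase. *Col18a1* made up 73.8% of the summed collagen level per kilobase in set A and 66.1% in set B. Its share was 31.2% in the triple mutant, 69.5% in *Setdb1* F/F and 37.7% in *Setdb1* Δ/Δ. The order below *Col18a1* differed in the 2 most changed mutants. In the triple mutant *Col4a1* (3.66 ± 0.39 CPM per kilobase), *Col9a2* (3.44 ± 0.30) and *Col4a2* (3.38 ± 0.19) lay within their spread of each other. In *Setdb1* Δ/Δ ESCs *Col9a2* (3.29 ± 0.14) and *Col13a1* (3.17 ± 0.42), a transmembrane collagen, lay within their spread of each other and above *Col4a1* (1.57 ± 0.20). Deposited TPM values could not serve for levels between genes, because *Col24a1* alone took 74.7% of the collagen TPM in set A from 308 counts in 3 libraries. Its TPM was 166 times its CPM, whereas this ratio lay between 0.144 and 5.32 for the other 43 members.

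Of the 44 collagens, 39 passed the filter on low counts in at least 1 of the 8 comparisons of a mutant with wild-type or floxed cells and 24 in all 8. *Col10a1*, *Col15a1*, *Col19a1*, *Col4a4* and *Col4a6* passed in none and did not reach 1 CPM in any condition. A gene was called when edgeR's quasi-likelihood test gave an adjusted p below 0.05 over all genes tested and the change was more than 2-fold, that is a log2 fold change above 1 or below −1. In this sense 37 members were called in at least 1 comparison, and *Col14a1* and *Col7a1* were tested but never called. Changes ran in both directions for 9 members: *Col1a1*, *Col1a2*, *Col3a1*, *Col4a5*, *Col6a1*, *Col8a2*, *Col11a1*, *Col12a1* and *Col23a1* were higher in some mutants and lower in others.

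Few collagen genes were called in single mutants or without HP1α and HP1β. Loss of HP1α alone gave 5 of 33 tested members, 3 higher and 2 lower, where 4.87% of all genes tested were called (1.56% higher and 3.31% lower). *Hp1β* Δ/Δ ESCs had 1 member higher and 1 lower of 32, against 9.1% of all genes (2.75% higher and 6.36% lower). *Hp1γ* Δ/Δ ESCs had 3 higher and 1 lower of 34, against 5.59% (2.04% higher and 3.55% lower). *Hp1α/β* Δ/Δ ESCs had 2 higher and 3 lower of 33, against 8.15% (2.96% higher and 5.19% lower). *Hp1α/γ* Δ/Δ ESCs had 16 of 32 tested members called, 2 higher and 14 lower, where 23.1% of all genes were called (6.75% higher and 16.3% lower). The median log2 fold change of their tested collagens was −0.73, against −0.02 over all genes tested. Without replicate 2, 3 were higher and 19 lower of 36 tested, with a median of −1.06, and 23.4% of all genes were called (6.56% higher and 16.8% lower). *Hp1β/γ* Δ/Δ ESCs had 8 members higher and 3 lower of 33, against 11.9% of all genes (7.32% higher and 4.54% lower). Without all 3 forms 23 of 37 were called, 10 higher and 13 lower, against 42.3% of all genes (25.1% higher and 17.1% lower), with a median of −0.58 against 0.04 over all genes. Compared with *Hp1α/β* Δ/Δ ESCs the triple mutant also had 10 members higher and 13 lower, against 41.4% of all genes (25.4% higher and 16% lower). In *Setdb1* Δ/Δ ESCs 11 members were higher and 6 lower of 27 tested, against 29.9% of all genes (18.5% higher and 11.4% lower). The share of tested members called lay above that of all genes in every one of these comparisons except that of *Hp1β* Δ/Δ ESCs, which is a description and was not tested.

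**Figure D1:**
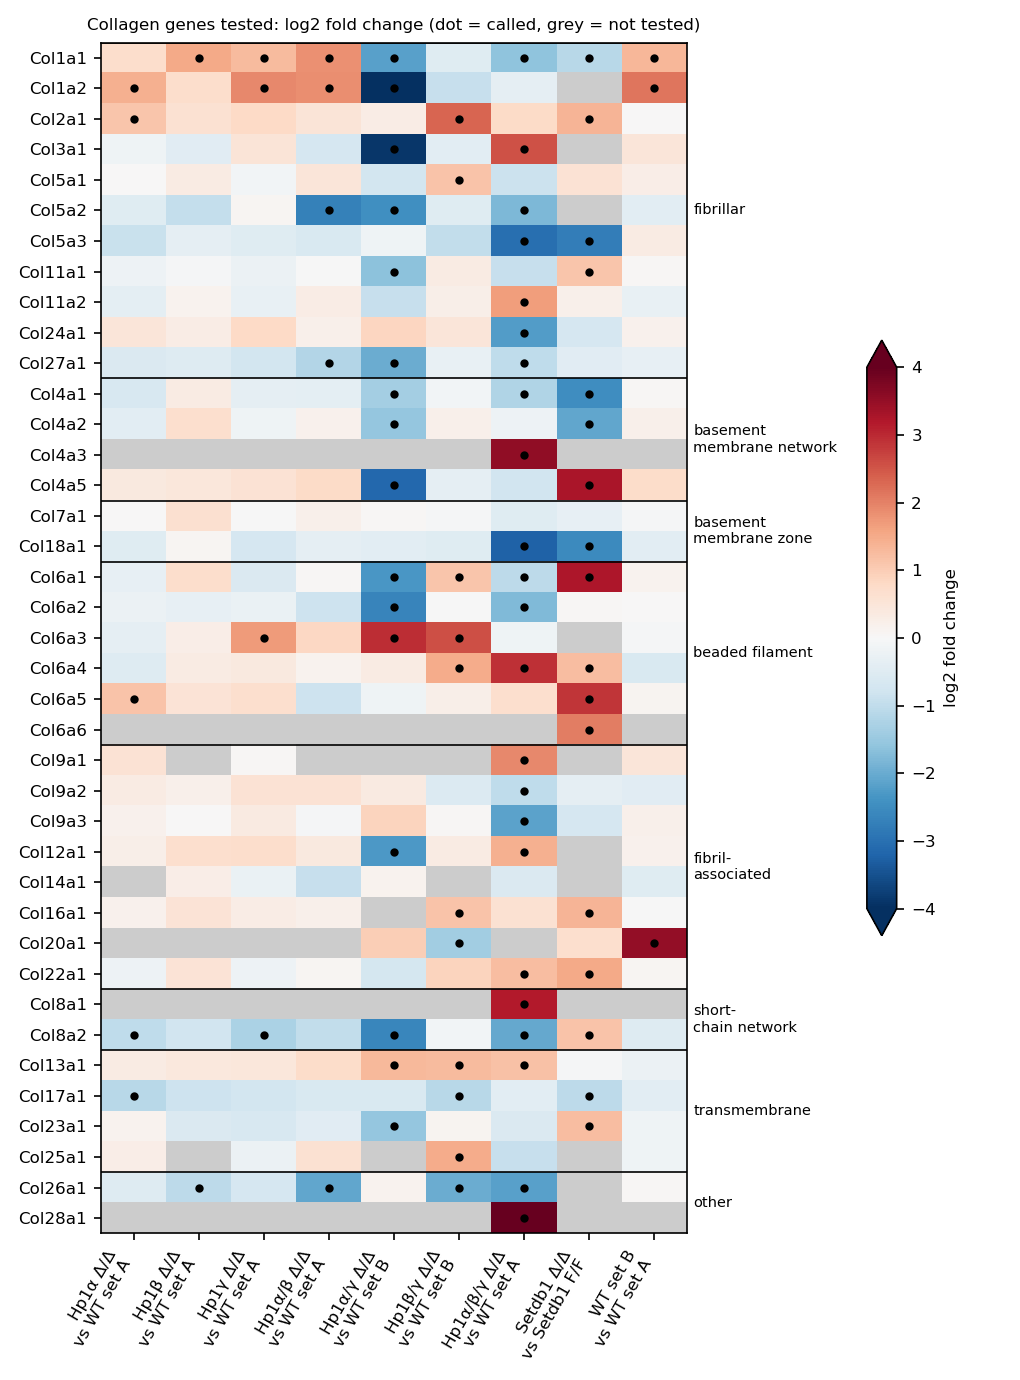
Log2 fold changes of each collagen gene (rows, grouped by class) in the 8 comparisons of a mutant with wild-type or floxed cells and between the wild-type sets (columns), with the colour scale in log2 units, a dot on called genes and grey where a gene was not tested. *Col18a1* is lower in both the triple mutant and *Setdb1* Δ/Δ ESCs, and the fibrillar rows are mostly lower in *Hp1α/γ* Δ/Δ ESCs.

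*Col18a1* (chr10:77052178-77166548, minus strand, GRCm38), the collagen of the basement membrane edge, fell in the triple mutant and in *Setdb1* Δ/Δ ESCs. It measured 617, 631 and 603 CPM in set A and 63.7, 69.5 and 66.2 CPM in the triple mutant. Its libraries did not overlap, and the decrease was 9.47-fold (log2 fold change −3.24, SE 0.03, adjusted p = 1.74e-23). Against *Hp1α/β* Δ/Δ ESCs, at 485, 476 and 477 CPM, the log2 fold change was −2.88 (adjusted p = 3.17e-18). In *Setdb1* F/F ESCs it measured 378, 374 and 375 CPM and in *Setdb1* Δ/Δ ESCs 65.3, 66.4 and 62.7 CPM. The decrease was 5.83-fold (log2 fold change −2.54, SE 0.03, adjusted p = 3.39e-21), and every mutant library lay below every control library in both experiments. In the other 6 mutants *Col18a1* was not called: it was lowest in *Hp1β/γ* Δ/Δ ESCs, at 332, 337 and 322 CPM against 426, 474 and 472 CPM in set B, and reached 708, 644 and 607 CPM in *Hp1β* Δ/Δ ESCs. The levels of the 2 wild-type sets themselves did not overlap. *Slc19a1* overlaps *Col18a1* on the opposite strand over 8825 bases and averaged at most 24.3 CPM in any condition. Whether the authors' counting used strand is not given in the sources used here.

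The type IV collagens *Col4a1* and *Col4a2* fell together in *Setdb1* Δ/Δ and in *Hp1α/γ* Δ/Δ ESCs, whereas *Col4a2* was not called in the triple mutant. In *Setdb1* F/F ESCs *Col4a1* measured 57.8, 56.3 and 57.7 CPM and in *Setdb1* Δ/Δ ESCs 11.0, 11.2 and 8.87 CPM, a log2 fold change of −2.48 (SE 0.07, adjusted p = 9.62e-16). *Col4a2* went from 28.7, 28.3 and 25.9 CPM to 6.30, 6.27 and 7.199 CPM, a log2 fold change of −2.08 (SE 0.08, adjusted p = 1.51e-13). The decreases were 5.56-fold and 4.22-fold, so both genes of the pair, whose shared start region is printed above, fell by more than 4-fold on average.

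The pair parted in the triple mutant when set A was the control. *Col4a1* measured 51.1, 54.0 and 61.1 CPM in set A and 25.98, 21.2 and 25.4 CPM in the triple mutant (log2 fold change −1.22, SE 0.08, adjusted p = 2.87e-11). *Col4a2* measured 24.2, 23.3 and 27.0 CPM in set A and 21.6, 23.1 and 20.7 CPM in the triple mutant (log2 fold change −0.22, not called). The groups of *Col4a2* did not overlap, though their nearest libraries were 23.3 and 23.1 CPM. The ratio of *Col4a1* to *Col4a2* per kilobase was 2.18 ± 0.10 in set A and 1.09 ± 0.17 in the triple mutant. In set A it lay between 2.06 and 2.26 and in the triple mutant between 0.89 and 1.2. *Hp1α/β* Δ/Δ ESCs lay between these, at 1.49 ± 0.08, and *Setdb1* F/F and *Setdb1* Δ/Δ ESCs had ratios of 2.02 ± 0.13 and 1.55 ± 0.30. Other genes on chromosome 8 were shifted upwards in the triple mutant (median log2 fold change 0.52), and relative to that median the changes were −1.74 for *Col4a1* and −0.74 for *Col4a2*. Against *Hp1α/β* Δ/Δ ESCs, whose *Col4a1* stood at 42.1, 41.8 and 43.1 CPM, *Col4a1* was not called.

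In *Hp1α/γ* Δ/Δ ESCs *Col4a1* measured 26.3, 16.2 and 26.8 CPM against 55.4, 58.7 and 58.5 CPM in set B, a log2 fold change of −1.34 (adjusted p = 0.0022). *Col4a2* measured 11.3, 8.44 and 10.2 CPM against 26.5, 28.4 and 31.2 CPM, a log2 fold change of −1.56 (adjusted p = 0.00034). The lowest library of both genes was replicate 2. Without it the log2 fold changes of *Col4a1* and *Col4a2* were −1.12 and −1.42, and both remained called. Their ratio per kilobase was 2.24 ± 0.35. In *Hp1β* Δ/Δ ESCs *Col4a1*, at 74.8, 69.3 and 67.7 CPM, and *Col4a2*, at 44.2, 40.7 and 35.9 CPM, lay above all set A libraries but were not called, since neither change exceeded 2-fold.

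The remaining type IV genes were low. *Col4a5*, an α5 chain gene on the X chromosome, went from 0.149, 0.446 and 0.0585 CPM in *Setdb1* F/F to 2.37, 2.06 and 2.05 CPM in *Setdb1* Δ/Δ ESCs (log2 fold change 3.26, adjusted p = 1.17e-06). Its direction was opposite to that of *Col4a1* and *Col4a2* in the same libraries. *Col4a5* was lower in *Hp1α/γ* Δ/Δ ESCs, at 0.438, 0.0548 and 0.0928 CPM against 1.67, 1.79 and 1.78 CPM in set B (log2 fold change −3.13, and −2.71 without replicate 2). *Col4a3* had 42 counts over the 3 libraries of the triple mutant, at 0.626, 0.596 and 0.642 CPM, and 3 counts over those of set A (adjusted p = 0.000313). All 3 tested type IV genes were thus called lower in *Hp1α/γ* Δ/Δ ESCs, against 16.3% of all genes. In *Setdb1* Δ/Δ ESCs 2 were lower and 1 higher of 3, against 11.4% and 18.5% of all genes. In the triple mutant 1 was lower and 1 higher of 4, a share called near the 42.3% of all genes. No type IV gene was called in the single mutants, *Hp1α/β* Δ/Δ or *Hp1β/γ* Δ/Δ ESCs, nor between the wild-type sets. *Col7a1*, which anchors epithelial basement membranes, stayed between 4.50 and 14.0 CPM in all 33 libraries and was called in no comparison.

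**Figure D2:**
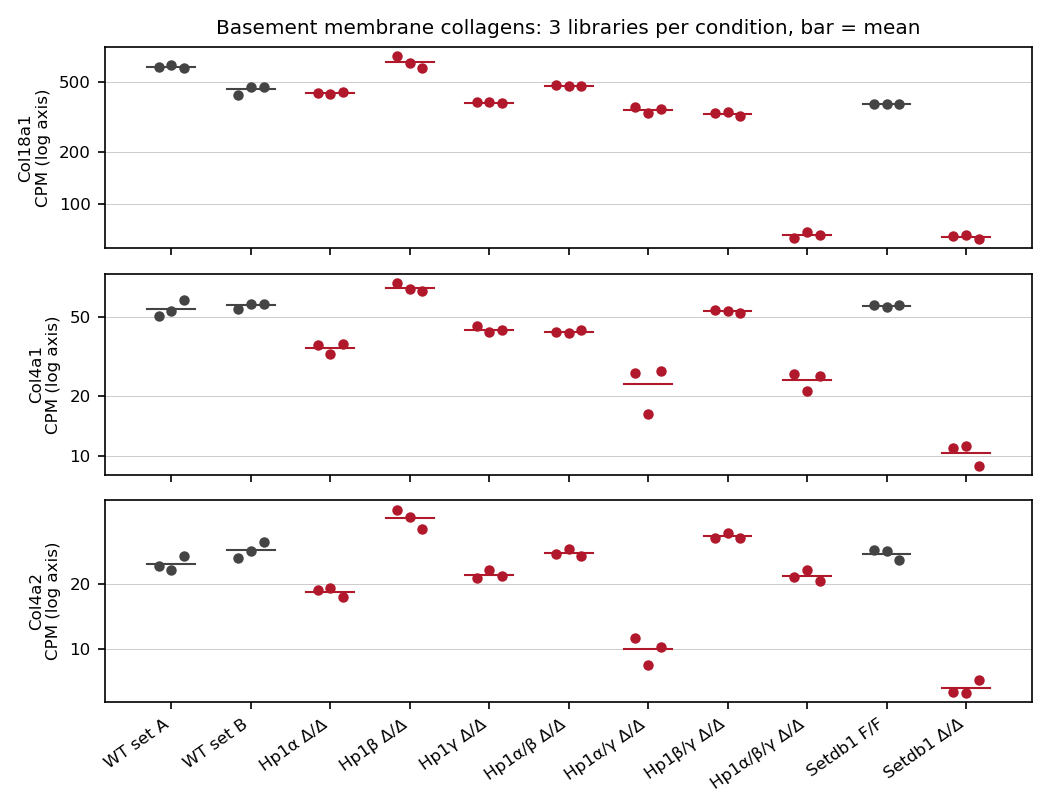
CPM (log axis) of *Col18a1*, *Col4a1* and *Col4a2* in each library, by condition, with controls in black, mutants in red and a line at the group mean. *Col18a1* drops to about the same level in the triple mutant and *Setdb1* Δ/Δ ESCs, where its libraries lie between 62.7 and 69.5 CPM, while *Col4a2* lies between 6.27 and 7.199 CPM in *Setdb1* Δ/Δ ESCs and between 20.7 and 23.1 CPM in the triple mutant.

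Genes for the other proteins of the basement membrane were examined as a list of 9, chosen with results of these data known. Of these, 8 of the 9 were called lower in the triple mutant, where 17.1% of all genes were (median log2 fold change −1.28), among them the linker *Nid1* (−2.29) and the laminin chains *Lama1* (−1.96), *Lamc1* (−1.94) and *Lamb1* (−1.64). Against *Hp1α/β* Δ/Δ ESCs 7 of 9 were lower, against 16% of all genes. In *Setdb1* Δ/Δ ESCs 4 of 9 were lower, against 11.4% of all genes: *Lama1* (−2.74), *Nid1* (−2.12), *Lamb1* (−1.89) and *Lamc1* (−1.69). In *Hp1α/γ* Δ/Δ ESCs, where all tested type IV genes were lower, 0 of the 9 were called (median 0.17), where 16.3% of all genes were called lower. Without replicate 2 it was again 0 (median 0.14, against 16.8% of all genes lower). *Lama1* was also lower in *Hp1β/γ* Δ/Δ (−2.36) and *Hp1α/β* Δ/Δ ESCs (−1.01). Endoderm cells make large amounts of basement membrane, so their markers are given beside these values. The 9 endoderm markers of the triple mutant summed to between 32.7 and 34.2 CPM, against 11.3 to 13.6 CPM in set A. Of 7 tested, 5 were higher, against 25.1% of all genes (among them *Gata4*, *Gata6* and *Sox17*, by 3.53, 3.50 and 2.99 on the log2 scale). In *Setdb1* Δ/Δ ESCs they summed to between 10.5 and 11.96 CPM against 39.8 to 44.3 CPM in *Setdb1* F/F, and 6 of 9 were lower and 1 higher. In *Hp1α/γ* Δ/Δ ESCs 1 endoderm marker was higher and 2 lower of 5 tested, against 6.75% and 16.3% of all genes. Without replicate 2, 1 was higher and 3 lower of 6, against 6.56% and 16.8% of all genes. *Sox7* (2.85) was then higher, and *Dab2* (−4.60), *Cubn* (−2.48) and *Amn* (−1.08) were lower. The part of endoderm cells in the collagen values was not tested in any of these mutants.

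Of the 5 fibrillar collagens typical of fibroblasts (*Col1a1*, *Col1a2*, *Col3a1*, *Col5a1* and *Col5a2*), 2 differed already between the wild-type sets, namely both chains of type I. *Col1a1*, the α1 chain of type I collagen, measured 5.92, 6.65 and 5.77 CPM in set A and 13.4, 18.7 and 14.2 CPM in set B. *Col1a2*, the α2 chain, measured 1.2, 1.52 and 1.44 CPM in set A and 4.86, 6.58 and 6.83 CPM in set B. The log2 fold changes of set B over set A were 1.34 for *Col1a1* (adjusted p = 2.18e-06) and 2.13 for *Col1a2* (adjusted p = 1.29e-06). *Col3a1* (0.50), *Col5a1* (0.27) and *Col5a2* (−0.42) were not called. Of 35 tested collagens 3 were called higher and 0 lower in set B, the remaining one being *Col20a1*, against 5.68% of all genes (2.55% higher and 3.12% lower). A change of type I collagen against one wild-type set therefore need not hold against the other. In bulk RNA, fewer cells of a type and less RNA per cell cannot be told apart.

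In *Hp1β* Δ/Δ ESCs *Col1a1* measured 18.7, 16.7 and 18.1 CPM, higher than set A (log2 fold change 1.53, adjusted p = 7.14e-07). In *Hp1γ* Δ/Δ ESCs it measured 13.1, 15.6 and 15.4 CPM (1.27) and without HP1α and HP1β 22.6, 22.4 and 19.9 CPM (1.81). Against set B the log2 fold changes of *Col1a1* were 0.20, −0.05 and 0.48 in these 3 mutants, and none was called. *Col1a2* was likewise higher than set A in *Hp1α* Δ/Δ (1.43), *Hp1γ* Δ/Δ (1.93) and *Hp1α/β* Δ/Δ ESCs (1.87). Against set B its log2 fold changes were −0.69, −0.18 and −0.27, none of them called. The type I collagen calls of these 4 mutants thus rested on the choice of wild-type set.

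Of the 5 feeder-type fibrillar collagens, 4 were lower in *Hp1α/γ* Δ/Δ ESCs than in set B, against 16.3% of all genes (median log2 fold change −2.46). *Col1a1* measured 3.31, 3.51 and 3.62 CPM (log2 fold change −2.19, SE 0.17, adjusted p = 0.000136). *Col1a2* measured 0.341, 0.0548 and 0.0464 CPM, that is 9 counts against 396 over 3 libraries each (log2 fold change −5.33, SE 0.51, adjusted p = 0.000262). Both genes lay below every library of both wild-type sets. Against set A the change of *Col1a2* was −3.20 and still called, and that of *Col1a1* was −0.84 and not called. *Col3a1*, the chain of type III collagen, had 4 counts against 67 (log2 fold change −3.88), and *Col5a2*, a chain of type V collagen, measured 0.827, 0.493 and 0.696 CPM against 4.12, 3.22 and 3.64 CPM (−2.46). Without replicate 2 the log2 fold changes were −2.16 for *Col1a1*, −4.96 for *Col1a2*, −3.75 for *Col3a1* and −2.26 for *Col5a2*, and all 4 remained called.

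The chains of types I, III and V moved apart in the triple mutant. *Col1a1*, at 2.46, 2.04 and 1.60 CPM, was lower than in set A (log2 fold change −1.62, adjusted p = 5.02e-07) and than in *Hp1α/β* Δ/Δ ESCs (−3.45). *Col1a2*, at 1.34, 1.04 and 0.962 CPM, was not called against set A, whose lowest library was at 1.2 CPM, but was lower than in *Hp1α/β* Δ/Δ ESCs (−2.22). Per kilobase *Col1a2* averaged 0.21 ± 0.04 CPM in the triple mutant, 0.26 ± 0.03 in set A and 1.14 ± 0.20 in set B. Its lack of a clear change thus rested on set A as control. *Col5a2* was lower, at 1.43, 1.64 and 1.24 CPM against 3.88, 4.71 and 6.10 CPM in set A (−1.80). *Col3a1*, in contrast, was higher, at 4.02, 4.57 and 4.57 CPM against 1.16, 0.508 and 0.529 CPM (log2 fold change 2.55, adjusted p = 1.79e-07). *Col3a1* was also higher than in *Hp1α/β* Δ/Δ ESCs (3.20). Only in the triple mutant, of all 33 libraries, did *Col3a1* exceed 1.32 CPM. *Col5a2* was low in *Hp1α/β* Δ/Δ ESCs as well, at 0.669, 1.25 and 0.282 CPM (log2 fold change −2.71 against set A).

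*Col5a1*, the major chain of type V collagen, followed another pattern. It was higher in *Hp1β/γ* Δ/Δ ESCs, at 42.3, 46.3 and 40.4 CPM against 17.8, 21.0 and 19.1 CPM in set B (log2 fold change 1.15, SE 0.07, adjusted p = 5.03e-09). In the triple mutant it measured 8.41, 8.64 and 9.70 CPM, below every set A library and the set B libraries just given. It was not called against set A (−0.87) and was called lower against *Hp1α/β* Δ/Δ ESCs (−1.36). *Setdb1* F/F ESCs had little of these fibrillar collagens: *Col1a1* measured 2.34, 2.23 and 1.75 CPM there and 1.26, 0.957 and 0.715 CPM in *Setdb1* Δ/Δ ESCs (log2 fold change −1.12, adjusted p = 0.00105). Without *Setdb1* Δ/Δ replicate 3 this change was −0.94 and no longer called. *Col1a2* had at most 0.101 CPM in any of these 6 libraries.

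**Figure D3:**
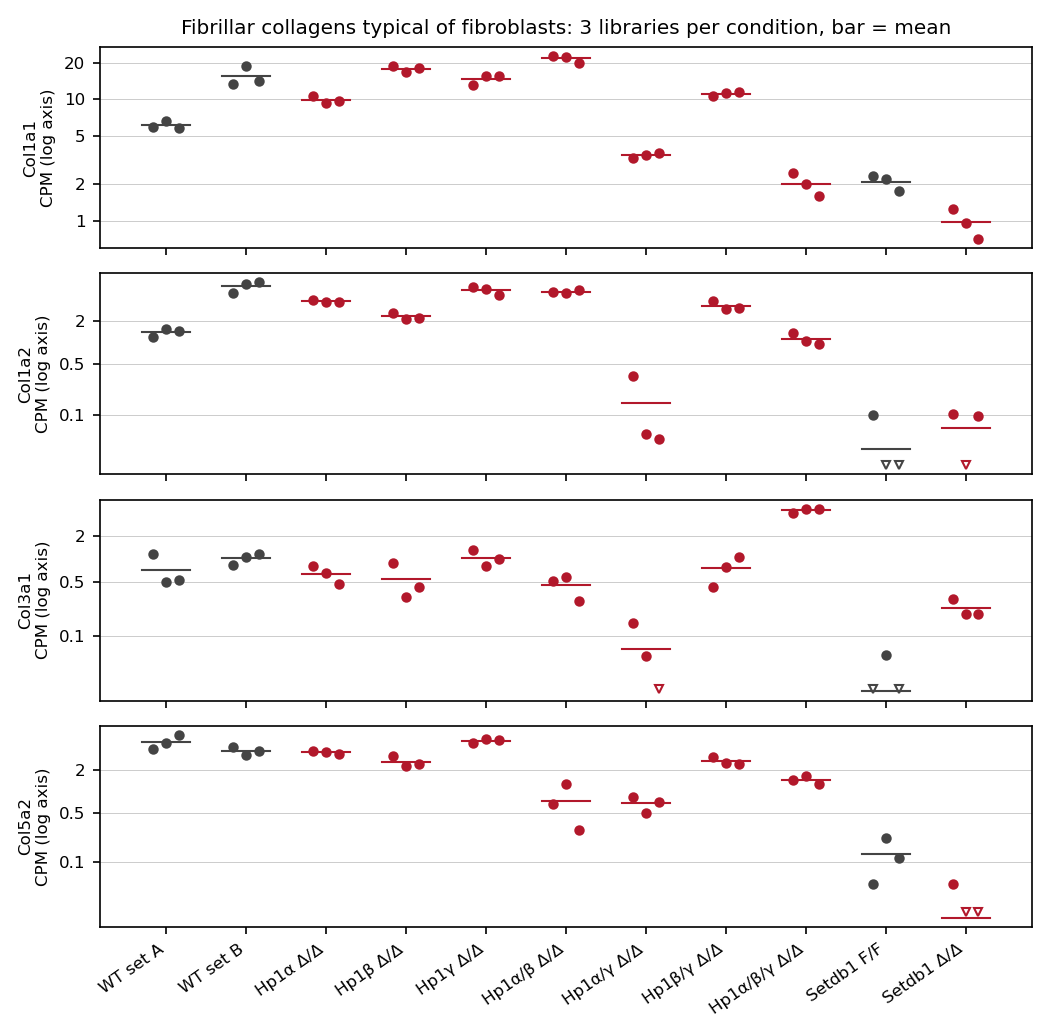
CPM (log axis) of *Col1a1*, *Col1a2*, *Col3a1* and *Col5a2* in each library, by condition, with controls in black, mutants in red, a line at the group mean and open triangles at the bottom for libraries with 0 counts. *Col1a2* is lowest in *Hp1α/γ* Δ/Δ and the *Setdb1* conditions, and *Col3a1* is highest in the triple mutant, at 4.02 to 4.57 CPM.

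Feeder fibroblasts express these genes too, so 15 markers of fibroblasts were read in the same libraries. *Fap*, a defining marker of activated fibroblasts, had no count in any of the 33 libraries. *Dpt* was detected in 2 libraries, *Mgp* in 9, *Lum* in 12, *Prrx1* in 13 and *Postn* in 19, and none of these 5 averaged more than 0.252 CPM in any condition. *Thy1* (up to 21.6 CPM), *Fbn1* (up to 16.1), *Acta2* (up to 8.72) and *Twist1* (up to 4.42) gave most of the summed level.

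The 15 markers summed to between 34.6 and 37.6 CPM in set A and between 43.1 and 47.8 CPM in set B, and 0 of 8 tested were called between the sets. The feeder-type fibrillar collagens summed to between 27.2 and 31.6 CPM in set A, against 41.0 to 50.6 CPM for set B. In *Hp1α/γ* Δ/Δ ESCs both sums were lower: the markers summed to between 14.2 and 15.6 CPM and the collagens to between 14.6 and 17.3 CPM. There 7 of 8 tested markers were called lower, against 16.3% of all genes, with *Acta2* (−5.22), *Pdgfrb* (−2.33) and *Thy1* (−1.78) among them and *Dcn* at 2 counts against 56. Without replicate 2 it was 6 of 8, against 16.8% of all genes, with *Acta2* at −5.13, *Pdgfrb* at −1.94 and *Thy1* at −1.83, and *Dcn* had no count in the remaining 2 libraries. The fibrillar collagens and the fibroblast markers thus fell together in this mutant. They parted in 4 mutants compared with set A, where every library had a collagen sum above and a marker sum below those of set A. The collagen side of this parting rested on the choice of wild-type set. Collagen sums of *Hp1β* Δ/Δ, *Hp1γ* Δ/Δ and *Hp1α/β* Δ/Δ ESCs overlapped those of set B, and those of *Hp1α* Δ/Δ ESCs lay below them. The marker sums of all 4 lay below set B too. Shares of all genes called in each of these comparisons are given above. In *Hp1α/β* Δ/Δ ESCs the collagens summed to between 48.3 and 51.5 CPM, above set A, and the markers to between 25.9 and 32.3 CPM, below it, with 3 markers higher (*Pdgfrb*, *Twist2* and *Acta2*) and 5 lower of 9 tested. In *Hp1β* Δ/Δ ESCs the collagens summed to between 39.99 and 47.4 CPM and the markers to between 25.7 and 28.1 CPM, with *Twist1* (−1.30) and *Fbln5* (−1.09) lower. In *Hp1γ* Δ/Δ ESCs the sums were 39.2 to 43.7 and 29.2 to 31.8 CPM, with *Acta2* (1.07) higher and *Twist1* (−1.41), *Dcn* (−1.16) and *Fbln5* (−1.15) lower. For *Hp1α* Δ/Δ ESCs they were 33.4 to 34.2 and 28.8 to 32.2 CPM, with 2 of 9 markers lower. In *Hp1β/γ* Δ/Δ ESCs the collagens summed to between 58.2 and 63.8 CPM while the markers lay between 35.5 and 37.7 CPM and 0 of 9 were called. For the triple mutant the collagens summed to between 17.7 and 18.1 CPM and the markers to between 27.9 and 33.7 CPM, with *Thy1* (−3.42) and *Dcn* (−2.49) lower and *Thbs2* (1.02) higher among 8 tested. In *Setdb1* F/F and *Setdb1* Δ/Δ ESCs *Acta2*, *Dcn*, *Lum*, *Postn* and *Prrx1* averaged under 0.1 CPM, and the markers summed to between 19.5 and 21.3 CPM. The part of the feeders in these collagen values was not tested.

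**Figure D4:**
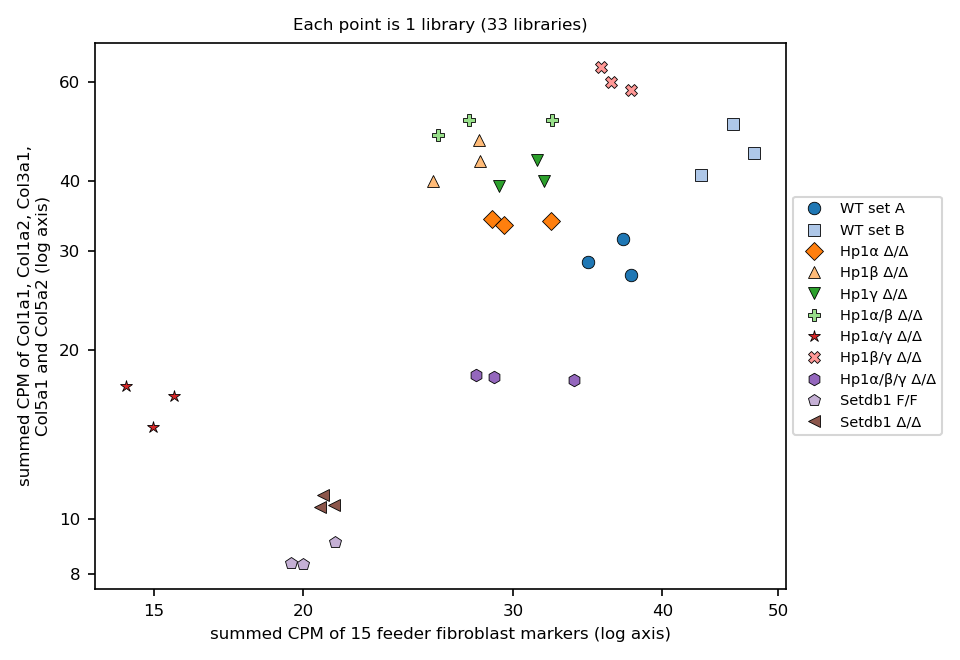
Summed CPM of the 5 feeder-type fibrillar collagens against summed CPM of the 15 fibroblast markers (both axes log), 1 point per library, with a symbol and colour for each condition. *Hp1α/γ* Δ/Δ libraries are low on both axes (14.6 to 17.3 and 14.2 to 15.6 CPM), and *Hp1β/γ* Δ/Δ libraries are the highest for collagens (58.2 to 63.8 CPM) at marker sums like those of set A.

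Among the fibrillar collagens of cartilage type, *Col2a1*, the chain of type II collagen, was raised most in *Hp1β/γ* Δ/Δ ESCs. It measured 28.5, 26.7 and 29.1 CPM there against 5.99, 5.01 and 5.92 CPM in set B (log2 fold change 2.32, SE 0.09, adjusted p = 1.42e-11). It was also higher in *Hp1α* Δ/Δ ESCs, at 11.1, 11.7 and 12.8 CPM against 5.45, 5.31 and 5.86 CPM in set A (1.11), and in *Setdb1* Δ/Δ ESCs, at 1.87, 2.06 and 2.15 CPM against 0.548, 0.781 and 1.05 CPM (1.35). In all 3 cases every mutant library exceeded every control library. *Col11a1*, a partner chain in the same fibrils, was likewise higher in *Setdb1* Δ/Δ ESCs (1.10), was not called in the other 2 of these mutants and was lower in *Hp1α/γ* Δ/Δ ESCs (−1.64, and −1.39 without replicate 2). *Col11a2* was higher in the triple mutant, at 2.50, 1.94 and 2.57 CPM against 0.462, 0.739 and 0.961 CPM (1.67).

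*Col5a3*, the least widespread chain of type V collagen, fell in the triple mutant and in *Setdb1* Δ/Δ ESCs. It measured 14.8, 15.1 and 15.8 CPM in set A and 2.15, 1.79 and 1.76 CPM in the triple mutant (log2 fold change −3.03, SE 0.14, adjusted p = 2.16e-13). In *Setdb1* F/F ESCs it measured 15.3, 16.2 and 17.8 CPM and in *Setdb1* Δ/Δ ESCs 1.92, 2.25 and 3.10 CPM (−2.76, SE 0.14, adjusted p = 4.45e-12). The control libraries of both experiments lay between 14.8 and 17.8 CPM and the mutant libraries between 1.76 and 3.10 CPM, and *Col5a3* was also called lower against *Hp1α/β* Δ/Δ ESCs (−2.42). *Col5a3* was not called in *Hp1α/γ* Δ/Δ ESCs, at 16.9, 15.9 and 18.9 CPM against 18.2, 21.6 and 16.99 CPM in set B. *Col24a1* was lower in the triple mutant (−2.22). In *Hp1α/γ* Δ/Δ ESCs *Col24a1* stood at 18.8 CPM in replicate 2 against 5.94 and 5.90 CPM in the others. *Col27a1* was lower in *Hp1α/γ* Δ/Δ (−1.998, and −1.74 without replicate 2), *Hp1α/β* Δ/Δ (−1.18) and triple mutant ESCs (−1.02). In *Hp1α/β* Δ/Δ ESCs its change against set B was −0.86 and not called. The change of *Col27a1* in the triple mutant lay at the 2-fold line and was not called against set B (−0.69) or when triple mutant replicate 2 or set A replicate 1 or 2 was left out.

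Type VI collagens, which form beaded filaments near cell surfaces, were the class with the most members higher in *Setdb1* Δ/Δ ESCs. There 4 of 5 tested were called higher and 0 lower, against 18.5% and 11.4% of all genes (median log2 fold change 2.04 against 0.01 over all genes tested). *Col6a1* rose from 0.249, 0.167 and 0.292 CPM to 2.12, 2.1 and 2.62 CPM (log2 fold change 3.23, SE 0.34, adjusted p = 1.13e-07). *Col6a5* rose from 1.05, 0.837 and 0.935 CPM to 7.21, 6.70 and 6.96 CPM (2.87, SE 0.18, adjusted p = 9.34e-11). *Col6a6* (2.04) and *Col6a4* (1.25) were the others called. The partner chain *Col6a2* was not called, at 1.10, 0.837 and 0.935 CPM before and 1.06, 0.765 and 1.14 CPM after.

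In *Hp1β/γ* Δ/Δ ESCs 3 of 5 type VI genes were higher, against 7.32% of all genes: *Col6a3*, at 4.83, 5.05 and 3.29 CPM against 0.737, 0.716 and 0.729 CPM in set B (log2 fold change 2.58), *Col6a4* (1.47) and *Col6a1* (1.10). Against set A the change of *Col6a4* was 0.84 and not called. *Col6a3* was raised in all 3 mutants that lack HP1γ and retain HP1α or HP1β. It measured 7.49, 3.95 and 5.94 CPM in *Hp1α/γ* Δ/Δ ESCs (2.96, and 3.20 without replicate 2) and 2.64, 2.70 and 1.97 CPM in *Hp1γ* Δ/Δ ESCs (1.69 against set A). In the triple mutant, which lacks HP1γ too, *Col6a3* measured 0.805, 0.496 and 0.722 CPM and was not called against set A. *Col6a1* and *Col6a2* ran the other way in *Hp1α/γ* Δ/Δ ESCs, with log2 fold changes of −2.34 and −2.64 (−2.19 and −2.82 without replicate 2). They were also lower in the triple mutant, where *Col6a1* measured 1.25, 1.49 and 1.32 CPM against 2.59, 2.49 and 3.22 CPM in set A (−1.06) and *Col6a2* 1.48, 2.33 and 1.88 CPM against 5.78, 6.60 and 6.54 CPM (−1.76). Without set A replicate 3 the change of *Col6a1* was −0.95 and no longer called. *Col6a4*, in contrast, rose in the triple mutant from 0.370, 1.02 and 0.769 CPM to 5.28, 5.61 and 5.73 CPM (2.91, adjusted p = 9.86e-09). *Col6a5* was higher in *Hp1α* Δ/Δ ESCs (1.13), but not when *Hp1α* Δ/Δ replicate 1 or set A replicate 1 was left out (0.95 and 0.84).

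The largest rise of any collagen in the triple mutant was that of *Col28a1*, a gene of little known function. It measured 0.0924, 0.462 and 0.144 CPM in set A and 5.68, 5.51 and 6.46 CPM in the triple mutant (log2 fold change 4.59, SE 0.34, adjusted p = 3.19e-10). Other tested genes on its chromosome, 6, had a median of 0.38. In no library of another condition did *Col28a1* exceed 0.462 CPM. *Col26a1*, the other collagen outside the main classes, was lower in *Hp1β* Δ/Δ (−1.04), *Hp1α/β* Δ/Δ (−2.07), *Hp1β/γ* Δ/Δ (−1.98) and triple mutant ESCs (−2.17), that is in all 4 mutants that lack HP1β. It stood at 4.53, 3.65 and 3.89 CPM in set A and at 1.21, 0.794 and 0.722 CPM in the triple mutant. In *Hp1β* Δ/Δ ESCs the change of *Col26a1* was −0.79 without replicate 2 and −0.94 without set A replicate 1, and then not called. It was not called in *Hp1α* Δ/Δ, *Hp1γ* Δ/Δ or *Hp1α/γ* Δ/Δ ESCs. Against *Hp1α/β* Δ/Δ ESCs the triple mutant showed no call for *Col26a1*.

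Of the 7 tested fibril-associated collagens, which decorate larger fibres, 3 were higher and 2 lower in the triple mutant, against 25.1% and 17.1% of all genes. *Col9a1* (1.91), *Col12a1* (1.42) and *Col22a1* (1.23) were the ones higher. *Col9a3* (−2.13) and *Col9a2* (−1.002) were the ones lower, so the 3 chains of type IX collagen did not move one way. *Col9a2*, the third collagen per kilobase in set A, went from 19.3, 19.7 and 20.04 CPM to 10.6, 10.5 and 9.02 CPM. This change lay at the 2-fold line: it was −0.53 against set B and −0.93 without triple mutant replicate 3, and then not called. *Col22a1* was also higher in *Setdb1* Δ/Δ ESCs (1.51), and in the triple mutant its change was 0.96, and not called, without triple mutant replicate 3. *Col12a1* was lower in *Hp1α/γ* Δ/Δ ESCs (−2.31, 12 counts against 63, and −1.88 without replicate 2), a call that was lost when *Hp1α/γ* Δ/Δ replicate 1 or any set B library was left out. *Col16a1* was called higher in *Hp1β/γ* Δ/Δ (1.15) and *Setdb1* Δ/Δ ESCs (1.37), but in the latter the groups overlapped. The *Col16a1* call in *Setdb1* Δ/Δ ESCs was lost without *Setdb1* Δ/Δ replicate 1 or 2 or *Setdb1* F/F replicate 1 or 3, and that in *Hp1β/γ* Δ/Δ ESCs without *Hp1β/γ* Δ/Δ replicate 1 or set B replicate 1. *Tcfl5*, at up to 77.3 CPM, overlaps *Col9a3* on the opposite strand over 234 bases. *Col20a1*, which shares 741 bases with an overlapping transcript on its own strand, had 13 counts in set A and 151 in set B (log2 fold change 3.51, adjusted p = 0.000163). Its change in *Hp1β/γ* Δ/Δ ESCs, −1.38 against set B, was 2.13 against set A.

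*Col8a2*, a short-chain collagen known from the corneal endothelium, was lower in 4 Hp1 mutants and higher in *Setdb1* Δ/Δ ESCs. In the triple mutant it measured 0.447, 0.894 and 0.842 CPM against 2.87, 3.23 and 2.79 CPM in set A (log2 fold change −2.05, adjusted p = 6.32e-06). *Hp1α/γ* Δ/Δ ESCs had 0.243, 0.329 and 0.464 CPM of *Col8a2* (−2.59, and −2.53 without replicate 2). The decreases in *Hp1α* Δ/Δ (−1.004) and *Hp1γ* Δ/Δ ESCs (−1.25) were not called against set B (−0.48 and −0.73), and the *Col8a2* call in *Hp1α* Δ/Δ ESCs was also lost without *Hp1α* Δ/Δ replicate 1 or 3 or set A replicate 2. *Col8a2* in *Setdb1* Δ/Δ ESCs went from 0.448, 0.558 and 0.468 CPM to 0.907, 1.39 and 0.953 CPM (1.13), and its change without *Setdb1* Δ/Δ replicate 2 was 0.91, not called. *Col8a1* had 6 counts in set A and 61 in the triple mutant (log2 fold change 3.19), but against set B the change was 0.99 and not called. Among the transmembrane collagens *Col13a1* was higher in *Hp1α/γ* Δ/Δ (1.28, and 1.07 without replicate 2), *Hp1β/γ* Δ/Δ (1.28) and triple mutant ESCs (1.16). *Col13a1* measured 5.63, 6.85 and 4.77 CPM in the triple mutant against 2.68, 2.22 and 2.64 CPM in set A. *Col25a1* was higher in *Hp1β/γ* Δ/Δ ESCs (1.49). *Col17a1* was lower in *Hp1α* Δ/Δ (−1.10), *Hp1β/γ* Δ/Δ (−1.11) and *Setdb1* Δ/Δ ESCs (−1.05). Against set B its change in *Hp1α* Δ/Δ ESCs was −0.68 and not called. The *Col17a1* call in *Hp1α* Δ/Δ ESCs was lost without *Hp1α* Δ/Δ replicate 1 or 3 or set A replicate 3, and that in *Setdb1* Δ/Δ ESCs without *Setdb1* Δ/Δ replicate 1 or 3 or *Setdb1* F/F replicate 1. *Col23a1*, at no more than 1.40 CPM in any library, was lower in *Hp1α/γ* Δ/Δ ESCs (−1.54, and −1.33 without replicate 2) and higher in *Setdb1* Δ/Δ ESCs (1.23). The first of these *Col23a1* calls was lost without *Hp1α/γ* Δ/Δ replicate 1 or set B replicate 1 or 2, and the second without *Setdb1* Δ/Δ replicate 2 or 3 or *Setdb1* F/F replicate 1 or 3.

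Collagen chains need enzymes and chaperones to fold, cross-link and be trimmed, and 35 such genes were read as a list, chosen with results of these data known. Of 33 tested, 3 were higher and 13 lower in the triple mutant, against 25.1% and 17.1% of all genes. *Colgalt2*, which adds galactose to collagen, was highest in change (4.60), whereas the cross-linking enzyme *Loxl2* (−2.45), the procollagen processing enhancer *Pcolce2* (−2.43) and the lysyl hydroxylase *Plod1* (−1.95) were lower. In *Hp1α/γ* Δ/Δ ESCs 0 were higher and 12 lower of 32, against 6.75% and 16.3% of all genes, with *P3h2* (−3.52), a prolyl hydroxylase that acts on type IV collagen, *Lox* (−2.69), *Adamts2* (−2.23) and *Fkbp10* (−2.02) changing most. Without replicate 2 there were 0 higher and 12 lower of 33, against 6.56% and 16.8% of all genes, and these 4 stood at −3.29, −2.51, −2.52 and −2.17. In *Setdb1* Δ/Δ ESCs 3 were higher and 5 lower of 31, a share called near the 29.9% of all genes: *Colgalt2* (3.96) and the lysyl hydroxylase *Plod2* (2.17) rose, and *Tll1* (−3.42) and *Crtap* (−2.28) fell. In *Hp1β/γ* Δ/Δ ESCs 4 were higher and 1 lower of 33, near the 11.9% of all genes, with *Colgalt2* (3.54), *Loxl4* (1.82), *Plod2* (1.65) and *Loxl1* (−1.31) changing most. *Colgalt2* was thus among the most raised genes of this list in 3 mutants. At most 2 were called in each direction without 1 HP1 form or without both HP1α and HP1β, and 0 of 32 between the wild-type sets.

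Receptors of collagen and enzymes that break it down were a list of 16. Of 10 tested, 3 were higher and 4 lower in the triple mutant, against 25.1% and 17.1% of all genes, among them the inhibitory receptor *Lair1* (3.62), the integrin *Itga11* (2.82), the gelatinase *Mmp2* (−2.65) and the endocytic receptor *Mrc2* (−2.57). In *Setdb1* Δ/Δ ESCs 3 were higher and 1 lower of 11, a share called near the 29.9% of all genes, namely *Itga11* (2.84), *Ddr2* (2.60), *Lair1* (2.05) and *Mmp2* (−2.14). *Itga11*, *Lair1* and *Mmp2* thus moved the same way in both. *Hp1α/γ* Δ/Δ ESCs had 1 higher and 4 lower of 8, against 6.75% and 16.3% of all genes. The 4 lower were *Mrc2* (−3.32), *Mmp2* (−1.87), *Mmp9* (−1.23) and *Ddr1* (−1.02), which stood at −3.17, −1.90, −1.39 and −1.003 without replicate 2, when 1 was again higher and 4 lower of 8. In *Hp1β/γ* Δ/Δ ESCs *Ddr2* and *Mmp9* (2.19) were higher and 0 lower of 9, against 7.32% and 4.54% of all genes.

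The triple mutant and *Setdb1* Δ/Δ ESCs, whose comparisons share no library, had 8 collagens called in both. They were 34.8% of the 23 called in the triple mutant, near the 29.9% of all genes called in *Setdb1* Δ/Δ ESCs. They were 47.1% of the 17 called in *Setdb1* Δ/Δ ESCs, near the 42.3% of all genes called in the triple mutant. Whether the overlap exceeded these shares was not tested. *Col18a1*, *Col4a1*, *Col5a3* and *Col1a1* were lower and *Col6a4* and *Col22a1* higher in both. *Col6a1* and *Col8a2* were lower in the triple mutant and higher in *Setdb1* Δ/Δ ESCs. The difference between the 2 changes was then tested directly, as an interaction in edgeR over the 12 libraries. It passed an adjusted p of 0.05 for 20 of 39 members tested, against 64.9% of all 18569 genes tested. *Col6a1* (difference −4.32 on the log2 scale, adjusted p = 4.89e-09), *Col4a5* (−4.06, adjusted p = 2.33e-06) and *Col8a2* (−3.20, adjusted p = 2.33e-06) had changes that were lower in the triple mutant. *Col4a2* (1.84, adjusted p = 3.23e-12), *Col6a4* (1.64) and *Col4a1* (1.23, adjusted p = 5.58e-09) had changes that were higher there. *Col18a1* fell more in the triple mutant than in *Setdb1* Δ/Δ ESCs, by a further 0.73 with set A as control (SE 0.04, adjusted p = 8.47e-13). Against set B its change in the triple mutant was −2.80, beside −2.54 in *Setdb1* Δ/Δ ESCs, and that difference was not tested. For *Col5a3* the difference was −0.29 ± 0.21 (SE) and did not pass (adjusted p = 0.242), nor did that of *Col1a1* (−0.52 ± 0.34, adjusted p = 0.191) or *Col22a1* (−0.31 ± 0.48, adjusted p = 0.608). Line and batch cannot be told apart from genotype in this comparison, since the 2 experiments have different control cells. Both mutants were made by Cre, so that treatment is shared as well, and its part in the common changes was not tested.

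**Figure D5:**
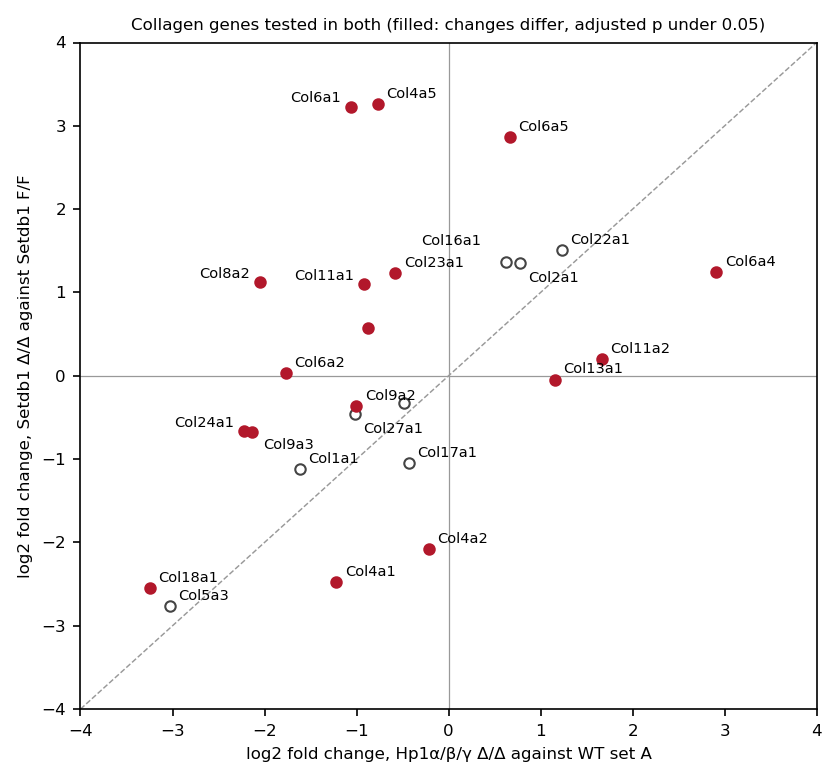
Log2 fold change of each tested collagen in the triple mutant (against set A) and in *Setdb1* Δ/Δ ESCs (against *Setdb1* F/F), filled where the changes differ by the interaction test, with a dashed line of equal change. *Col18a1* and *Col5a3* lie in the lower left, at −3.24 and −3.03 in the triple mutant, whereas *Col6a1* and *Col8a2* lie lower in the triple mutant and higher in *Setdb1* Δ/Δ ESCs.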

How the data were processed

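RNA-seq of 33 ESC libraries was read from 8 deposited tables that list 55487 genes. The values are expected counts, which the authors made by aligning paired reads and estimating counts per gene with RSEM, and TPM, deposited beside them and not used for tests or for levels between genes. The submitters' processing notes name TopHat2 2.1.1, RSEM, edgeR and GRCm38.p5, without roles. The annotation and the strand setting are not given in the sources used here, and the labels and the study name different TruSeq kits. Of the count values, 12.9% were not whole, and all were rounded. The tables also hold the authors' log2 fold changes and adjusted p-values for their comparisons, which were not used. No per-sample column was left unmapped.

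Each comparison was fitted on its own 6 libraries over all genes with edgeR 4.0.16 (R 4.3.3): filterByExpr at a minimum count of 10, TMM scaling, glmQLFit and glmQLFTest, Benjamini-Hochberg adjustment. Calls needed an adjusted p below 0.05 together with a log2 fold change beyond 1 in either direction. The interaction of the triple mutant and *Setdb1* Δ/Δ was fitted over 12 libraries. CPM used TMM factors over all 33 libraries. Set sums are plain sums of CPM. The scripts were tested on simulated counts with known changes.

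Alternatives were RLE size factors, DESeq2 1.42.0, other count filters, no fold limit, the other wild-type set, a replicate block, the chromosome median and leaving out each library. Same-numbered replicates did not deviate together (in no comparison did all 3 correlations exceed 0.1), so the numbers were not used to pair libraries. Members were taken by symbol, matched to GENCODE and RefSeq tables of GRCm38. The members and the gene lists were chosen with earlier results of these data known. Any collagen called, or reaching 1 CPM in a condition, could be named, and of each other list up to 4 called genes per comparison with the largest changes.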

Additional observations from a re-analysis of the deposited data

Results flagged for a closer look

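*Col6a1* and *Col8a2* stood out because each was called in opposite directions in the 2 experiments that share no library. The change of *Col6a1* was −1.06 (log2) in the triple mutant and 3.23 in *Setdb1* Δ/Δ ESCs, and the difference of −4.32 passed the interaction test in edgeR (adjusted p = 4.89e-09). Its starting level differed too: set A lay between 2.49 and 3.22 CPM and *Setdb1* F/F between 0.167 and 0.292 CPM, whereas the mutant libraries lay between 1.25 and 1.49 CPM and between 2.1 and 2.62 CPM. The change of *Col8a2* was −2.05 in the triple mutant and 1.13 in *Setdb1* Δ/Δ ESCs, with a difference of −3.20 (adjusted p = 2.33e-06). For each gene 1 of the opposite calls hung on 1 library. Without set A replicate 3 the change of *Col6a1* in the triple mutant was −0.95 and not called. Without *Setdb1* Δ/Δ replicate 2 the change of *Col8a2* in *Setdb1* Δ/Δ ESCs was 0.91 and not called. The 2 genes lie on chromosomes 10 and 4 and belong to different classes. Cell line and batch cannot be told apart from genotype here.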

How the results depend on the processing

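Of 143 counts of collagens recomputed under an alternative, 130 stayed within 1.5 times the reported count, and of 1232 recomputed log2 fold changes of called genes, 1148 kept their direction and call, 79 kept their direction but lost the call and 5 reversed. The reversals came with the other wild-type set as control: *Col1a2* in *Hp1α* Δ/Δ (−0.6928), *Hp1γ* Δ/Δ (−0.1834) and *Hp1α/β* Δ/Δ (−0.265), *Col1a1* in *Hp1γ* Δ/Δ (−0.05181) and *Col20a1* in *Hp1β/γ* Δ/Δ (2.127). An adjusted p under 0.05 alone, with no fold limit, gave 14 collagens in *Hp1α* Δ/Δ, 15 in *Hp1β* Δ/Δ, 13 in *Hp1γ* Δ/Δ, 15 in *Hp1α/β* Δ/Δ, 20 in *Hp1β/γ* Δ/Δ and 6 between the wild-type sets. Requiring at least 10 counts in every library, which tests fewer genes, gave 8 in *Hp1α/γ* Δ/Δ, 15 in the triple mutant against set A, 15 against *Hp1α/β* Δ/Δ and 8 in *Setdb1* Δ/Δ. Leaving out 1 library gave 2 to 5 calls in *Hp1α* Δ/Δ (2 without replicate 1, 3 without replicate 3), 1 to 3 in *Hp1β* Δ/Δ (1 without replicate 2), 4 to 5 in *Hp1γ* Δ/Δ, 5 to 7 in *Hp1α/β* Δ/Δ, 15 to 22 in *Hp1α/γ* Δ/Δ (22 without replicate 2), 12 to 14 in *Hp1β/γ* Δ/Δ, 21 to 23 in the triple mutant against set A, 20 to 23 against *Hp1α/β* Δ/Δ, 14 to 18 in *Setdb1* Δ/Δ, 3 to 4 between the wild-type sets and 18 to 20 for the interaction.

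With the replicate number as a replicate block, counts were 23 in the triple mutant, 16 in *Hp1α/γ* Δ/Δ and 16 in *Setdb1* Δ/Δ, where *Col17a1* (−0.9877) lost its call. DESeq2 gave 23, 19 and 18. Many members lay under 1 CPM, where a change of 2-fold rests on few counts.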
